A study of Arabidopsis thaliana with 12 samples.

Results

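The transcripts described here were higher at every sampled time on sulfur-deficient medium than in control roots. They were chosen by the measured values themselves: probe sets other than AFFX controls whose signal + 16 on each of the 10 arrays from 3 h to 72 h was at least 1.5 times signal + 16 on the higher of the 2 arrays at 0 h, with a mean signal of 100 or more in any group. Of 22746 probe sets, 63 met these numbers. Of those, 8 were left out by name (BGLU28, AT1G04770, CP1, AT1G75280, AT1G75290, AT1G60750, GSTU25 and UGT87A2), which left 55 members. GI, also named for leaving out, did not meet the numbers. Since the rule set every later array against 0 h, the members' differences from 0 h are a description with no test, and members are tested only among the times after transfer, which the rule did not compare. The mean signal limit could be met by a single group, and where that group is compared the test is not independent of the rule.

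The plants were Arabidopsis thaliana of the Columbia ecotype, whole roots were sampled, and the labels name no mutation or transgene. Seedlings grew for 5 days on standard MS medium. They were then moved to sulfur-deficient medium for 3, 12, 24, 48 or 72 h, and the 0 h group was moved to fresh standard medium. The deficient medium held chlorides of magnesium, calcium, iron, copper, zinc and manganese and 1% sucrose. Each of the 6 groups had 2 single-colour Affymetrix arrays, 12 in all. Nothing in the labels says that the numbered replicates were separate cultures, so the spread behind each p-value may be technical. No later time had plants on standard medium, so sulfur deficiency, transfer, seedling age and hour of harvest cannot be told apart.

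Roots take up sulfate, activate it with ATP sulfurylase and reduce it to sulfide, which is built into cysteine and from there into methionine, glutathione and, in the cabbage family, glucosinolates. When sulfate runs short, Arabidopsis roots are known to make more sulfate transporters and a small set of marker transcripts, and to break down glucosinolates. Part of this response is known to need SLIM1, a transcription factor of the EIN3-like family.

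The values are MAS5 signals, linear brightness values with 1 number per probe set and array. The 12 arrays had 2% trimmed means of 250.02 to 250.03 and replicate arrays correlated at 0.980 to 0.987 across probe sets on the log2(signal + 16) scale, on which all differences below are given. Of root cell type markers, 1 of 4 for the endodermis, 1 of 5 for the root tip, 2 of 5 for root hairs and none of 5 for the stele could be tied to a probe set of its own. On replicates 1 and 2 in that order, as in all pairs of signals below, the root hair genes EXPA7 and EXPA18 summed to 723 and 368 at 3 h, against 1244 and 1553 at 0 h. GSO1 of the endodermis had 383 and 358 at 3 h, against 338 and 513 at 0 h. Leaf genes were present as well: LHCB4.1 and RCA, 2 of 5 green tissue markers, summed to 421 and 483 at 3 h, against 596 and 612 at 0 h. Their part in the results was not tested, and in whole roots fewer cells of a type and less RNA per cell cannot be told apart.

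Of the 55 members, 14 were paired with a single gene in the platform table and 41 were not listed there, so those are called by their probe set ID. Genes could be left out by name only where they were listed. The 41 unlisted members may therefore include genes that the rule leaves out, such as other UGT genes. All 55 passed the filter for testing, a signal above the 40th percentile of the array (45.2 to 50.3) on at least 2 arrays. At 0 h, 9 members lay below that percentile on both arrays, and 54 members lay above it on all 10 later arrays. The exception was AT1G12030. Member means at 0 h ran from a signal of 1.55 for AT1G12030 to 2842 for 262518_at, with a median of 181. The median member signal was 816 at 3 h, 585 at 12 h, 579 at 24 h, 576 at 48 h and 637 at 72 h. Median log2 differences from 0 h were 1.81, 1.24, 1.17, 1.32 and 1.33 in the same order of times, against medians between -0.02 and 0.01 over all probe sets tested. Averaged over the 5 later times, 48 members were at least 2-fold, 11 at least 4-fold and 4 at least 8-fold above 0 h on the signal + 16 scale. For the 9 members dim at 0 h these sizes depend on the offset, so a lower bound was also taken, with both arrays of any group below the percentile raised to it. With bounds in place the medians were 1.81, 1.20, 1.13, 1.21 and 1.32, and 45 members were at least 2-fold, 10 at least 4-fold and 4 at least 8-fold above 0 h.

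At each time, a minority of the probe sets past the limit were past it at all 5 times. Both arrays of a time passed the same 1.5-fold limit for 398 probe sets at 3 h (1.75% of 22746), 272 at 12 h (1.2%), 215 at 24 h (0.945%), 190 at 48 h (0.835%) and 234 at 72 h (1.03%). Of the 398 at 3 h, 162 also passed at 12 h, 95 through 24 h, 73 through 48 h and 63 through 72 h, which are the members and the 8 left out. Thus 15.8% of the probe sets past the limit at 3 h were past it at every time, and 329 probe sets passed at a single time. These counts share the 0 h arrays and the rule fixes the last of them. The mirrored rule, with every later array at least 1.5 times below the lower 0 h array, was met by 91 probe sets.

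Replicate arrays of the members differed by a median of 0.19 on the log2 scale at 0 h, 0.16 at 3 h, 0.22 at 12 h, 0.17 at 24 h, 0.15 at 48 h and 0.11 at 72 h. Over all probe sets tested these medians were 0.22, 0.22, 0.18, 0.15, 0.17 and 0.16. The widest gap between replicates of a member, 1.63, was that of 266743_at at 3 h, with signals of 719 and 222 at 3 h. On the 3 h replicate 2 array the 3' to 5' signal ratios of the actin and GAPDH controls, a sign of RNA quality, were 33.9 and 1.03, the highest of the 12 arrays, whose ranges were 18.8 to 33.9 and 0.634 to 1.03. The ratio of the ubiquitin control on that array, 2.51, was not the highest, with a range of 1.91 to 2.71 over the arrays.

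**Figure D1:**
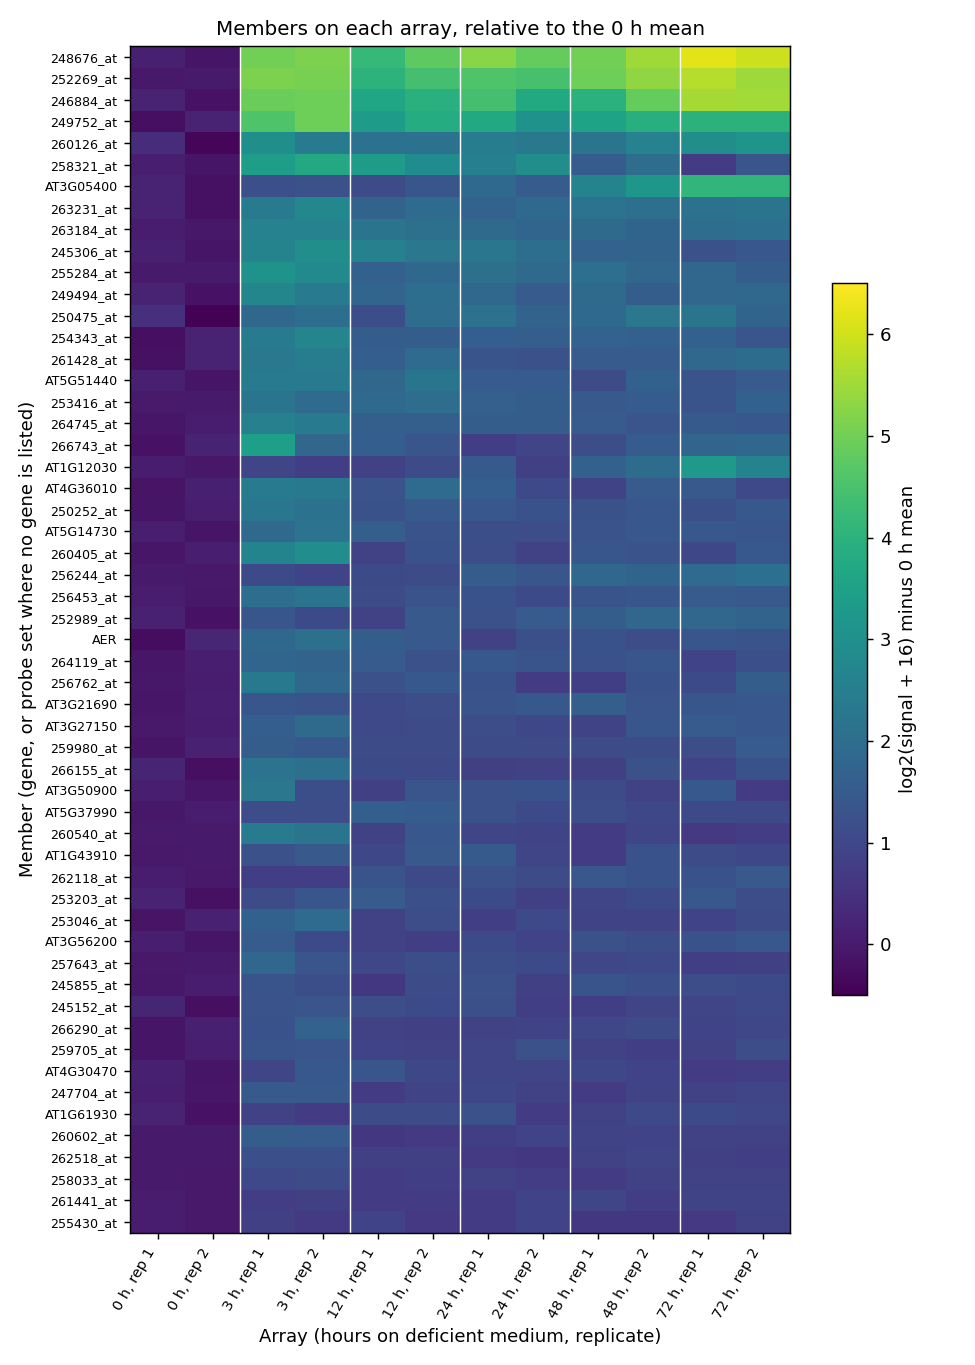
Each row is 1 of the 55 members and each column 1 of the 12 arrays, in order of time; colour is log2(signal + 16) minus the mean of the 2 arrays at 0 h. Rows are sorted by the mean difference over the later times, and the top 4 rows stand apart, with fitted mean differences of 3.90 to 5.19.

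A group of 4 unlisted probe sets had the highest mean differences, and each was dim at 0 h and bright on all later arrays. Probe set 248676_at had signals of 41.2 and 33.1 at 0 h, 1684 and 1814 at 3 h, 943 and 1435 at 12 h, 2013 and 1501 at 24 h, 1694 and 2385 at 48 h and 3902 and 3330.2 at 72 h. Its lowest later array, 12 h replicate 1, was far above both 0 h arrays, and the 72 h arrays were the highest. Its 0 h arrays lay below the percentile, and with that as the floor the log2 difference from 0 h was at least 4.75 at 3 h, 4.17 at 12 h and 5.79 at 72 h. Probe set 252269_at gave 30.5 and 31.3 at 0 h, 1622 and 1561 at 3 h, 744 and 996 at 12 h, 1099.8 and 1027 at 24 h, 1452 and 1891 at 48 h and 2457 and 2076 at 72 h. Its difference from 0 h was at least 4.62 at 3 h and 5.12 at 72 h by the same floor. Probe set 246884_at read 20.1 and 12.8 at 0 h, 967 and 980.5 at 3 h, 385 and 476 at 12 h, 686 and 415 at 24 h, 489 and 905 at 48 h and 1489.9 and 1463 at 72 h. Here the bounds were 3.92 and 4.51 at those times. These 3 probe sets were lower at 12 h than at 3 h and highest at 72 h. For 249752_at the signals were 50.0 and 71.6 at 0 h, 1794 and 2328 at 3 h, 755 and 1071 at 12 h, 1012 and 635 at 24 h, 886 and 1131 at 48 h and 1196 and 1193 at 72 h. It differed from the other 3 in being highest at 3 h.

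Among the times after transfer, all 4 of these probe sets differed (moderated F test over 3 to 72 h, adjusted p = 0.00299 for 248676_at, 8.33e-04 for 252269_at, 0.00349 for 246884_at and 0.0126 for 249752_at). Leaving out 3 h replicate 2 ended the call of 249752_at (adjusted p = 0.127). At 12 h against 3 h, 252269_at fell by 0.87 ± 0.17 (SE, adjusted p = 0.0141), 246884_at by 1.16 ± 0.26 (SE, adjusted p = 0.0318) and 249752_at by 1.17 ± 0.23 (SE, adjusted p = 0.0172), while 248676_at stood at -0.58 ± 0.21 (SE, adjusted p = 0.223). Each of these 3 calls ended when 3 h replicate 2 or 12 h replicate 1 was left out, with adjusted p up to 0.188, 0.29 and 0.22. That of 246884_at was also lost without 3 h replicate 1 or 12 h replicate 2, with no offset, with no filter and with no intensity trend in the variance. At 72 h against 3 h, 248676_at rose by 1.04 ± 0.21 (SE, adjusted p = 0.00663), a call lost without 72 h replicate 1 (adjusted p = 0.0669). The other 3 did not pass, at 0.50 ± 0.17 (SE, adjusted p = 0.0818) for 252269_at, 0.59 ± 0.26 (SE, adjusted p = 0.195) for 246884_at and -0.77 ± 0.23 (SE, adjusted p = 0.0558) for 249752_at.

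Transporter genes were among the members with a named gene. AT3G05400, of the sugar transporter family, had signals of 17.4 and 10.3 at 0 h, 52.0 and 54.2 at 3 h, 49.3 and 61.0 at 12 h, 94.5 and 70.3 at 24 h, 168 and 258 at 48 h and 497 and 490.1 at 72 h. It was dim through 12 h, and both 72 h arrays exceeded both 48 h arrays, which in turn exceeded all earlier ones. Its 0 h arrays lay below the percentile, and the difference from 0 h was at least 0.08 at 3 h and 2.96 at 72 h, so its excess at the early times lay near the dim end of the arrays. At 72 h against 3 h it rose by 2.88 ± 0.22 (SE, adjusted p = 2.77e-06), the highest value of any member. It met the mean signal limit of the rule at 48 h and 72 h alone, so this test is not independent of the rule. AT3G21690, a MATE efflux family gene whose relatives export small molecules from cells, had 236 and 266 at 0 h, 676 and 643 at 3 h, 537 and 582 at 12 h, 655 and 705 at 24 h, 810.2 and 668 at 48 h and 675 and 691 at 72 h. The highest later group was 48 h and the lowest 12 h, and the F test did not pass (adjusted p = 0.463). AT3G56200, of an amino acid transporter family, had 485 and 422 at 0 h, 1332 and 976 at 3 h, 849.7 and 795 at 12 h, 967 and 856 at 24 h, 1083 and 1050.1 at 48 h and 1098 and 1219 at 72 h. Its lowest later group was 12 h and its highest 72 h, and the F test did not pass (adjusted p = 0.205).

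Genes of chemical and protein stress were the next group. AER, an alkenal reductase that removes reactive aldehydes formed by lipid oxidation, gave 115 and 171 at 0 h, 553 and 648 at 3 h, 451 and 409 at 12 h, 274 and 346 at 24 h, 357 and 334 at 48 h and 389.7 and 377 at 72 h. Values peaked at 3 h, and both 0 h arrays lay below every later array, as the rule requires of any member. AER was lower at 72 h than at 3 h by a log2 difference of -0.62 ± 0.18 (SE, adjusted p = 0.0436), and its F test passed (adjusted p = 0.029). The 72 h call was lost in 10 of 20 alternatives: without 3 h replicate 2, without any 12 h, 48 h or 72 h array, and with no offset, no filter or no trend (adjusted p up to 0.261). The F call was lost in 9: without the second 3 h array, the first 12 h or 24 h array or any 48 h or 72 h array, and with no filter or no trend (adjusted p up to 0.186). AER was 1 of 10 genes on a detoxification list, of which only DTX3 (AT2G04050), a MATE exporter, also had a probe set of its own, too dim to be tested. AT5G51440, a mitochondrial small heat shock protein, had 118 and 100.1 at 0 h, 629 and 642 at 3 h, 422 and 567 at 12 h, 339 and 349 at 24 h, 254 and 379 at 48 h and 295 and 339.5 at 72 h. Both 3 h arrays exceeded all others. It fell at 72 h against 3 h by 0.97 ± 0.19 (SE, adjusted p = 0.00485), a call lost without 72 h replicate 1 (adjusted p = 0.0521), and its F test (adjusted p = 0.0107) did not pass without 3 h replicate 2 (adjusted p = 0.0559).

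AT4G36010, of the thaumatin family of pathogenesis-related proteins, had 64.3 and 79.6 at 0 h, 447 and 422 at 3 h, 197 and 324 at 12 h, 249.7 and 164 at 24 h, 152 and 233 at 48 h and 225 and 164 at 72 h. Its 3 h arrays were the 2 highest and replicates from 12 h on were spread widely. It fell at 72 h against 3 h by 1.11 ± 0.26 (SE, adjusted p = 0.0137), a call that ended with 3 h replicate 2 left out (adjusted p = 0.0587) or 72 h replicate 2 left out (adjusted p = 0.165). The F test passed at an adjusted p of 0.0419 and was lost in 9 of 20 alternatives: without either 3 h array, the second 24 h or 72 h array or the first 48 h array, with no offset, no filter or no trend, and with the replicate block (adjusted p up to 0.184).

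Other named members included enzymes and an F-box gene. AT5G37990, of a methyltransferase family that uses S-adenosylmethionine, a sulfur-containing methyl donor, had 1196 and 1290.0 at 0 h, 2770.0 and 2765 at 3 h, 3776 and 3608 at 12 h, 2975 and 2640.4 at 24 h, 2809 and 2524 at 48 h and 2642 and 2568 at 72 h. It was the brightest named member, and both 12 h arrays were above all others. The F test did not pass (adjusted p = 0.076). AT4G30470, related to cinnamoyl-CoA reductases, had 413 and 353 at 0 h, 763 and 1056 at 3 h, 1019 and 789 at 12 h, 754 and 759 at 24 h, 786 and 726 at 48 h and 644 and 663 at 72 h. AT1G43910, an AAA-type ATPase, had 70.2 and 72.4 at 0 h, 189 and 223 at 3 h, 162 and 222 at 12 h, 227 and 153 at 24 h, 129.9 and 195 at 48 h and 173 and 159.9 at 72 h. Neither passed the F test (adjusted p = 0.378 for AT4G30470 and 0.816 for AT1G43910). Replicates were farthest apart at 3 h and 12 h for AT4G30470, and at 24 h and 48 h for AT1G43910.

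AT3G27150 encodes an F-box protein with kelch repeats whose transcript is a known target of miR2111, a microRNA of phosphate shortage. Its signals were 121 and 127 at 0 h, 406 and 511 at 3 h, 270.3 and 289.8 at 12 h, 297 and 269 at 24 h, 249.5 and 345 at 48 h and 383 and 356 at 72 h. They were highest at 3 h, and the F test did not pass (adjusted p = 0.0619), except without 48 h replicate 2 (adjusted p = 0.0331). AT1G61930, of a family linked to senescence, had 91.8 and 70.4 at 0 h, 160.5 and 146 at 3 h, 192 and 195 at 12 h, 213 and 146 at 24 h, 159 and 185 at 48 h and 186 and 177 at 72 h. Like AT3G05400 and AT1G12030 it was lowest, of the later times, at 3 h, and the F test did not pass (adjusted p = 0.825).

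For 3 named members no role is given here. AT1G12030, which has a domain of unknown function, had 2.12 and 0.978 at 0 h, 18.0 and 14.5 at 3 h, 16.1 and 21.2 at 12 h, 32.9 and 15.3 at 24 h, 39.96 and 53.0 at 48 h and 155 and 93.0 at 72 h. It lay below the 40th percentile on every array through 24 h and on 48 h replicate 1, and its 72 h arrays were the 2 highest. It met the mean signal of 100 at 72 h alone and passed the filter through 48 h replicate 2 and the 72 h arrays. The test at 72 h against 3 h called it, but the fitted size, 2.08, rests on dim 3 h arrays and ran from 1.37 with an offset of 50 to 2.89 with no offset. With the percentile as floor the difference was at least 1.11. Against 0 h its bound was above 0 at 72 h only. AT5G14730 had 316 and 274 at 0 h, 1144 and 1371 at 3 h, 931 and 759 at 12 h, 683 and 677 at 24 h, 749 and 808 at 48 h and 826 and 771 at 72 h. Both 3 h arrays exceeded all others, and it fell at 72 h against 3 h by 0.64 ± 0.15 (SE, adjusted p = 0.0138). Leaving out 3 h replicate 2 (adjusted p = 0.132), 72 h replicate 1 (0.0544) or 72 h replicate 2 (0.133) ended that call. Its F test (adjusted p = 0.0139) did not pass with 3 h replicate 2 left out (adjusted p = 0.153). AT3G50900 had 233 and 206 at 0 h, 1112 and 519 at 3 h, 399 and 576 at 12 h, 542 and 549 at 24 h, 498 and 418 at 48 h and 614 and 367 at 72 h. Its 3 h replicates differed more than its later groups did from each other, and the F test did not pass (adjusted p = 0.497). In the gene order of the TAIR10.1 table, the closest of the 14 named members, AER and AT5G14730 on chromosome 5, were 283 gene entries apart, so none were neighbours.

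**Figure D2:**
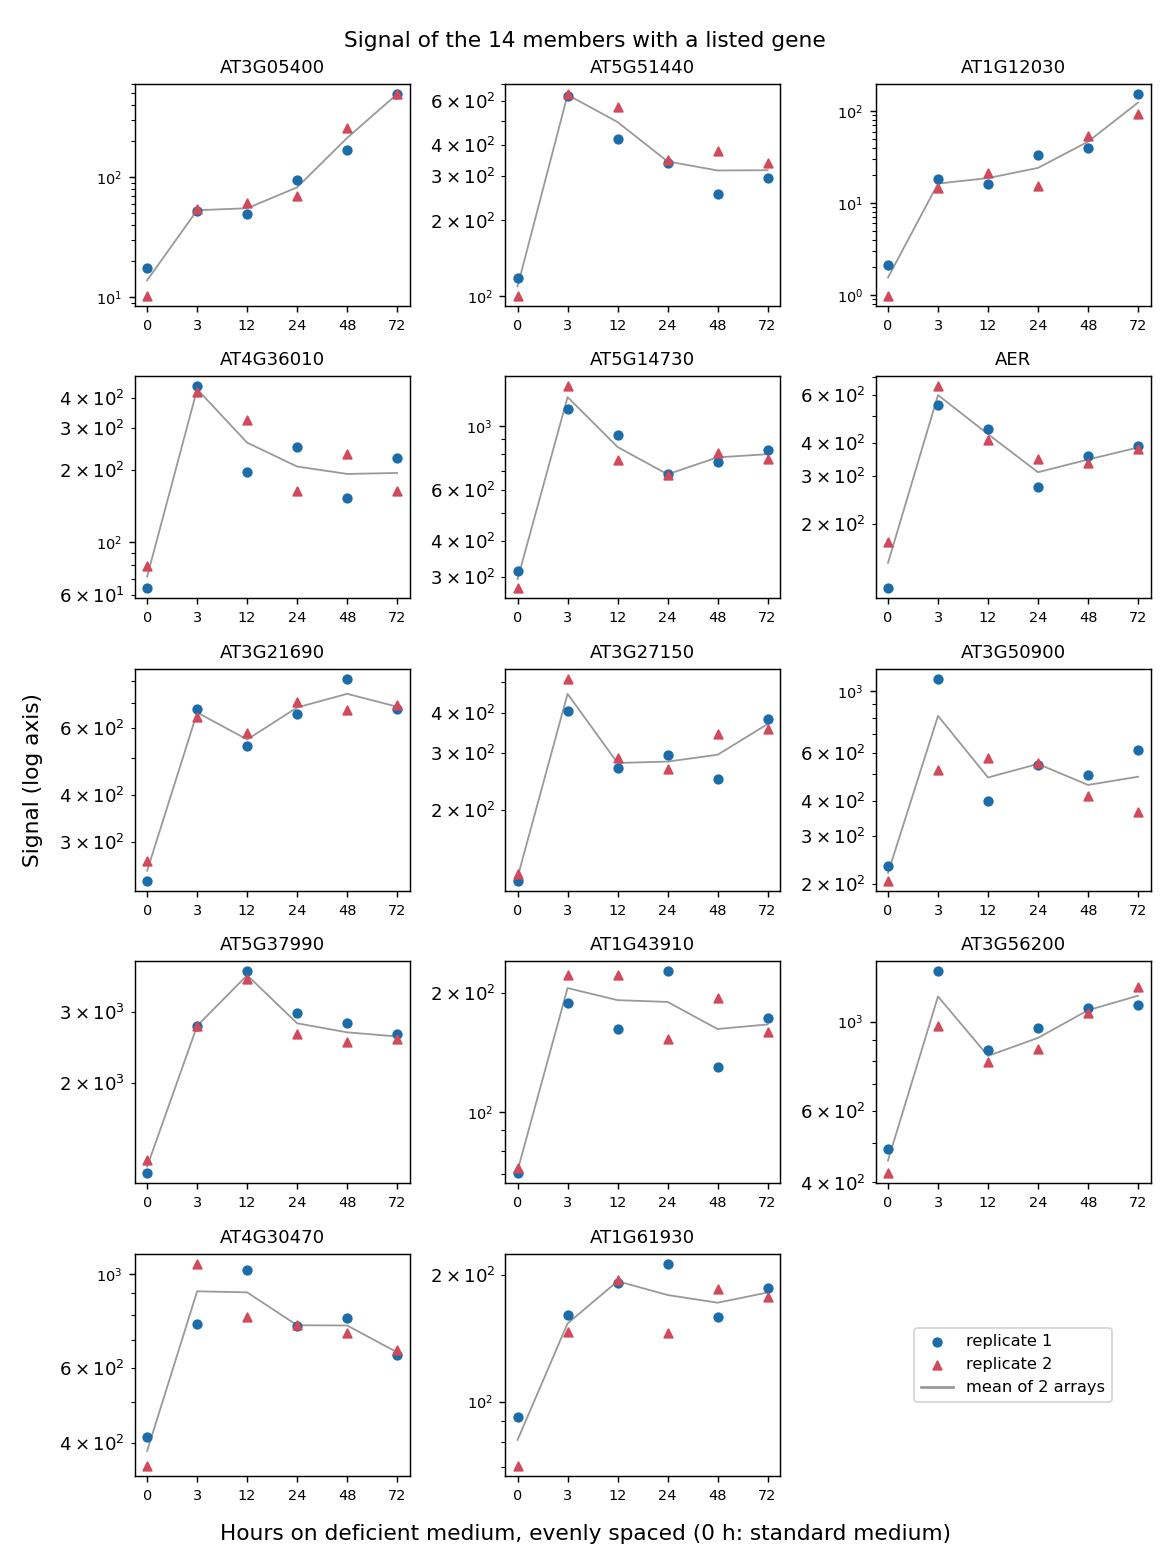
Signal on a log axis against hours on deficient medium for the 14 members with a listed gene, with 1 panel per gene; circles and triangles are replicates 1 and 2 and the line joins group means of 2 arrays. By the rule, both 0 h points lie below all later points in every panel. AT3G05400 and AT1G12030 climb to their highest values at 72 h, and AT5G51440, AT4G36010, AT5G14730 and AER peak at 3 h.

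Most members were highest at the first time after transfer. By group means, 37 of the 55 members (67.3%) were highest at 3 h, 11 (20%) at 72 h, 3 at 12 h, 3 at 48 h and 1 at 24 h. Over all probe sets tested, 27.1% were highest at 3 h and 20% at 72 h among these 5 times. Members were most often lowest at 12 h (16, or 29.1%) or 24 h (14, or 25.5%), against 20.1% and 15.7% of all probe sets tested. The F test over the later times called 31 of 55 members (56.4%), against 6.85% of the 14682 probe sets tested. Of the 91 probe sets of the mirrored rule it called 43 (47.3%), and the difference between these sets was not tested. Without 3 h replicate 2 it called fewer members, and also fewer of all probe sets tested. Calls lay with the members highest at 3 h (25 of 37) and at 72 h (6 of 11), and with none of the 7 highest in between.

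**Figure D3:**
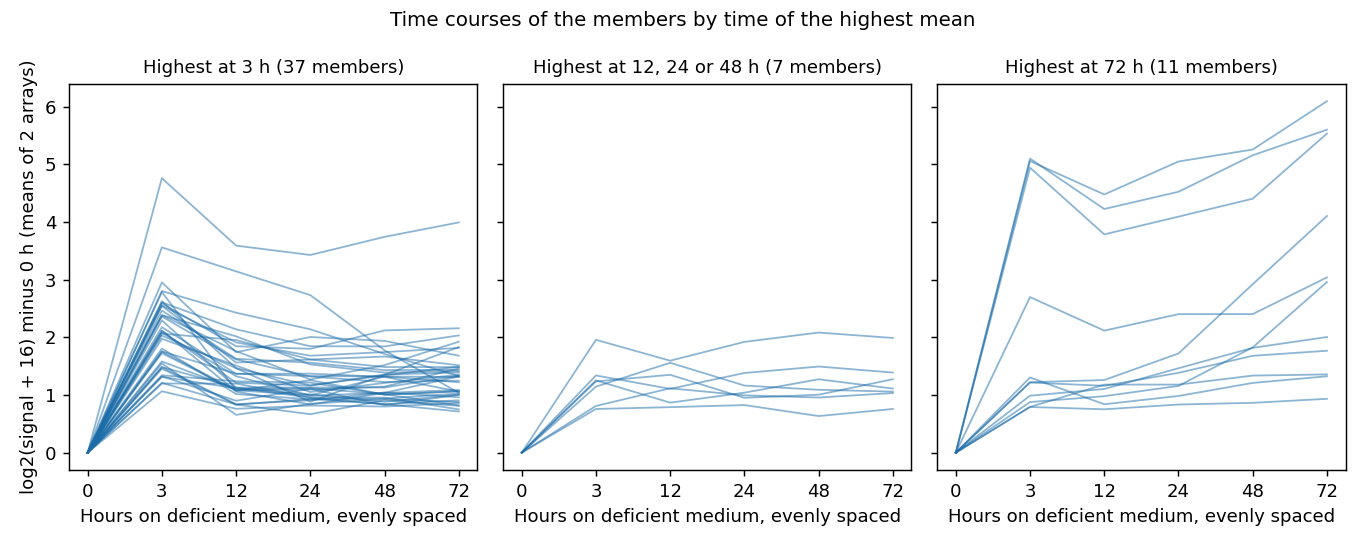
Mean log2(signal + 16) minus 0 h against hours on deficient medium, with 1 line per member, split by the time of the highest group mean. The split itself places every line of the panel of 37 highest at 3 h and every line of the panel of 11 highest at 72 h. In the panel of 11 the top 3 lines are lower at 12 h than at 3 h.

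The step from 3 h to 12 h was the 1 successive step at which members passed. At 12 h against 3 h, 15 of 55 members fell and 0 rose, against 1.23% of all probe sets lower and 1.04% higher. The median difference of the members was -0.47, against 0.00 over all probe sets, and 47 of 55 were below 0. No member passed from 12 h to 24 h, 24 h to 48 h or 48 h to 72 h, where limma called 0.0204%, 0% and 0.0136% of probe sets higher and 0.0136%, 0.0272% and 0.0681% lower. At an unadjusted p under 0.05, 9, 7 and 9 of the 55 members differed at these steps. Over all 14682 probe sets tested 1127, 497 and 714 did (7.68%, 3.39% and 4.86%), a lower share than that of the members at each step. Median member differences were -0.02, 0.05 and 0.06. With 3 h replicate 2 or 12 h replicate 1 left out fewer members fell at 12 h, and fewer of all probe sets were called lower as well.

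Probe set 260405_at fell most at 12 h against 3 h, by 1.70 ± 0.21 (SE, adjusted p = 6.00e-04). It met the mean signal limit of the rule at 3 h alone, so its tests against 3 h are not independent of the rule. It had 27.3 and 32.1 at 0 h, 270.2 and 331 at 3 h, 68.8 and 94.2 at 12 h, 84.8 and 66.1 at 24 h, 101 and 94.8 at 48 h and 75.8 and 107 at 72 h. Both 3 h arrays were far above all others, which lay close together from 12 h to 72 h. Probe set 255284_at had 273 and 273 at 0 h, 2388 and 2062 at 3 h, 885 and 1018 at 12 h, 1214 and 1077 at 24 h, 1183 and 1005 at 48 h and 987 and 838 at 72 h and fell by 1.21 ± 0.15 (SE, adjusted p = 6.00e-04). Probe set 264745_at had 429 and 478 at 0 h, 2719 and 2432 at 3 h, 1434 and 1431 at 12 h, 1363 and 1370.0 at 24 h, 1325 and 1176 at 48 h and 1293 and 1217 at 72 h. Its fall was 0.84 ± 0.13 (SE, adjusted p = 0.00341), and as in 255284_at both 3 h arrays exceeded every other array. Probe set 260540_at, with 46.3 and 45.9 at 0 h, 310.4 and 269 at 3 h, 95.7 and 149 at 12 h, 105 and 104 at 24 h, 85.7 and 106 at 48 h and 82.1 and 89.9 at 72 h, fell by 1.17 ± 0.19 (SE, adjusted p = 0.00594), a call lost without 12 h replicate 1 (adjusted p = 0.0959). For 263231_at the signals were 441 and 342 at 0 h, 2129 and 2743 at 3 h, 1329 and 1555 at 12 h, 1305 and 1486 at 24 h, 1789 and 1695 at 48 h and 1755 and 1820.2 at 72 h. It fell by 0.74 ± 0.16 (SE, adjusted p = 0.0264), a call lost without 3 h replicate 2 or either 12 h array, with no trend and with the compared groups alone (adjusted p up to 0.262).

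At 72 h against 3 h, the last time against the first, 23 members fell and 5 rose, against 4.14% of all probe sets lower and 4.58% higher. Their median difference was -0.46, against 0.01 over all probe sets. By the same test 46 of the 91 probe sets of the mirrored rule were called (50.5%), beside 50.9% of the members. All 23 that fell were highest at 3 h, and the 5 that rose, AT3G05400, AT1G12030, 248676_at, 256244_at and 262118_at, were highest at 72 h. Among the 23, 11 had also fallen by 12 h and 12 had not passed there. AT1G12030 is among the 5 through its late arrays alone. With 3 h replicate 2 or either 72 h array left out fewer members fell, and fewer of all probe sets were called lower as well.

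The deepest fall was that of 258321_at, at -2.52 ± 0.24 (SE, adjusted p = 1.60e-05). Its signals were 139.7 and 119.9 at 0 h, 1510.1 and 1912 at 3 h, 1493 and 1079 at 12 h, 815 and 1107 at 24 h, 409.7 and 566 at 48 h and 224 and 356 at 72 h. Group means were lower at each successive time after 3 h, the 2 lowest later arrays were those of 72 h, and 72 h replicate 1 came close to the limit of the rule, at 1.54 times the higher 0 h array. Probe set 245306_at had the same shape, with 265 and 224 at 0 h, 1602 and 2019.8 at 3 h, 1543 and 1239 at 12 h, 1211 and 1054 at 24 h, 824 and 848 at 48 h and 602 and 675 at 72 h, and fell by 1.47 ± 0.16 (SE, adjusted p = 5.30e-05). In neither did the step from 3 h to 12 h pass, at -0.42 ± 0.24 (SE, adjusted p = 0.513) and -0.38 ± 0.16 (SE, adjusted p = 0.322). By contrast 260540_at and 260405_at, at -1.58 ± 0.19 (SE, adjusted p = 1.46e-04) and -1.57 ± 0.21 (SE, adjusted p = 2.64e-04), had made most of their fall by 12 h.

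Probe sets 260126_at and 263184_at were also among the 10 with the highest mean differences. The first had 263 and 145 at 0 h, 1654 and 1117 at 3 h, 912 and 894 at 12 h, 1161 and 1051 at 24 h, 958 and 1276 at 48 h and 1643 and 1815 at 72 h, and its F test did not pass (adjusted p = 0.136), though it did in 3 of 20 alternatives. Probe set 263184_at had 148 and 139 at 0 h, 956 and 955 at 3 h, 709 and 664 at 12 h, 584 and 532 at 24 h, 587 and 527 at 48 h and 626 and 648 at 72 h. All its later arrays were at least 3.31 times the higher 0 h array, and at 72 h against 3 h it fell by 0.57 ± 0.13 (SE, adjusted p = 0.0128), a call lost without 3 h replicate 2 or either 72 h array (adjusted p up to 0.0858).

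**Figure D4:**
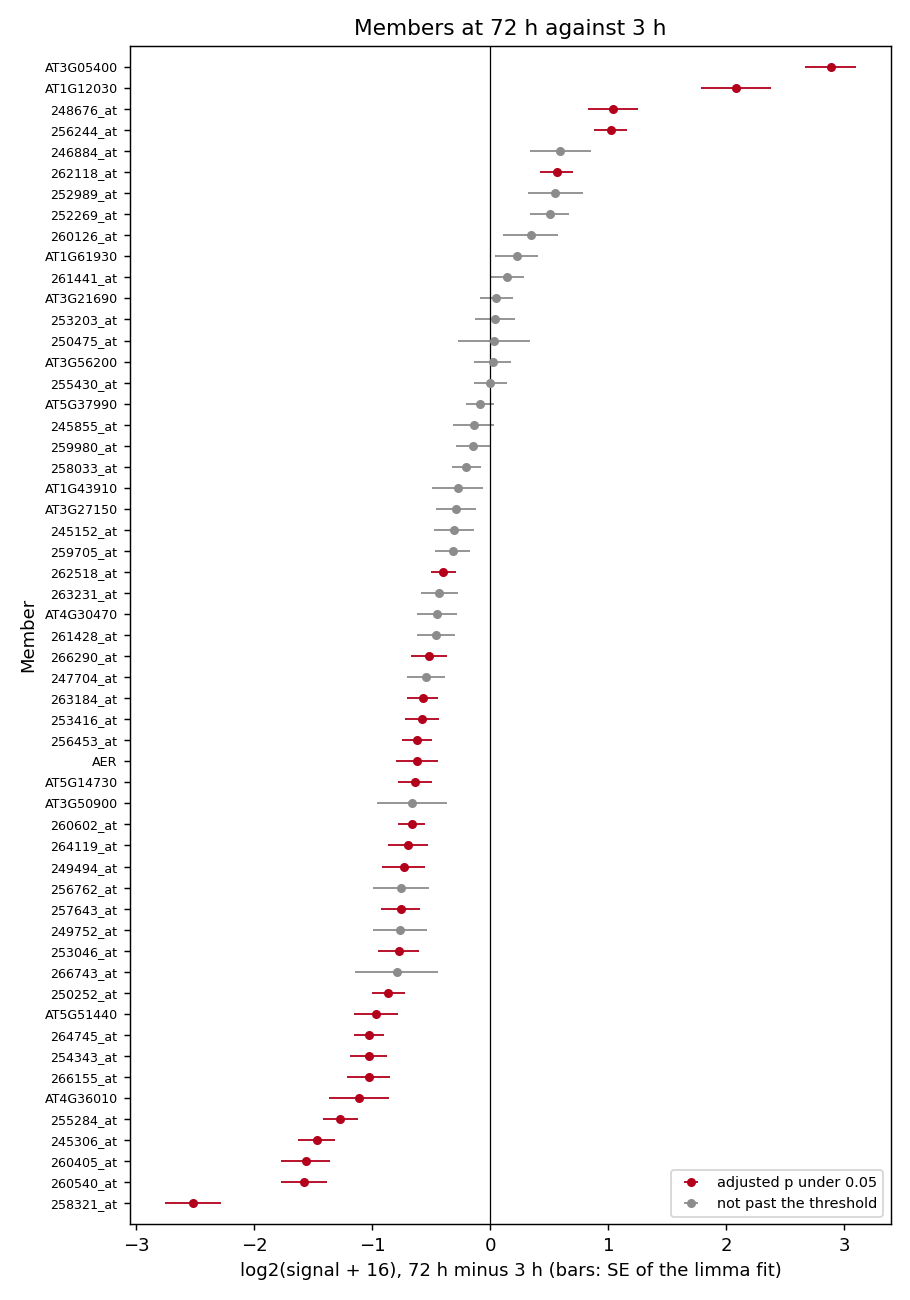
Difference in log2(signal + 16) at 72 h minus 3 h for each of the 55 members, with bars of 1 SE from the limma fit; red points passed an adjusted p of 0.05 and grey points did not. Of the red points 23 lie below 0 and 5 above, with 258321_at at -2.52 and AT3G05400 at 2.88 at the ends.

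The other unlisted members are given by their ranges. The 41 unlisted members had fitted mean log2 differences from 0 h, averaged over the later times, of 0.75 to 5.19, and the 14 named ones 0.98 to 2.25. The brightest was 262518_at, with means of 2842 at 0 h, 6602 at 3 h and 5002 at 72 h. Probe set 256244_at climbed in steps, with means of 99.0, 212, 231, 302, 389.6 and 446 at 0, 3, 12, 24, 48 and 72 h, and rose at 72 h against 3 h by 1.02 ± 0.14 (SE, adjusted p = 4.14e-04). The flattest by the F test was 261441_at (adjusted p = 0.898), with means between 195 and 224 at the later times, against 109.6 at 0 h.

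The edge of the set depended on the limit and on the 2 arrays at 0 h: 142 probe sets met the rule with 0 h replicate 1 left out and 101 with replicate 2 left out. Just inside the limit were AT1G61930, whose lowest later array was 1.50 times the higher 0 h array, 245855_at at 1.51 and 245152_at at 1.51. Probe set 245855_at had 222 and 236 at 0 h, 592 and 545 at 3 h, 364 and 509 at 12 h, 564 and 422 at 24 h, 598 and 554 at 48 h and 526 and 501 at 72 h, and 245152_at had 273 and 199 at 0 h, 591 and 619 at 3 h, 538 and 513 at 12 h, 565 and 419.9 at 24 h, 422 and 467 at 48 h and 473 and 498 at 72 h. Just outside, with genes named for leaving out, such as GI, not counted, were AT3G02910 at 1.498 times, 262626_at at 1.495 and HL (AT5G54390) at 1.48. HL is a HAL2-like phosphatase that clears the nucleotide left over from sulfate transfer, and had 263 and 257 at 0 h, 562 and 694 at 3 h, 397 and 604 at 12 h, 624 and 613 at 24 h, 563 and 553 at 48 h and 653 and 695 at 72 h. AT3G02910, an AIG2-like gene, had 854 and 413 at 0 h, 1794 and 1610.5 at 3 h, 2254 and 1989.6 at 12 h, 2129 and 1546 at 24 h, 1286 and 1489 at 48 h and 1487 and 1299 at 72 h. Its 0 h arrays differed widely from each other, and the higher of them kept it out. Signals of 262626_at were 235 and 224 at 0 h, 512 and 564 at 3 h, 587 and 570.1 at 12 h, 462 and 477 at 24 h, 433 and 418 at 48 h and 359 and 451 at 72 h. Signals just inside and just outside the limit overlapped in size.

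Other genes of the sulfur pathway were taken from lists. None of 12 sulfate transporters could be tied to a probe set of its own, and of 10 sulfur deficiency markers 2 could, BGLU28 and AT1G04770 (SDI2), both left out by name after meeting the rule. Their log2 differences from 0 h at 3, 12, 24, 48 and 72 h were 6.25, 3.08, 3.97, 4.75 and 6.15 for BGLU28 and 2.47, 1.72, 1.75, 2.04 and 2.26 for AT1G04770. Like 248676_at, 252269_at and 246884_at, both were lowest among the later times at 12 h.

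Of 20 genes of sulfate assimilation, 3 could be tied to a probe set of their own, and none of these 3 was a member. Whether any of the others is among the 41 members without a listed gene could not be told. At 3 h 1 of the 3 rose, against 5.49% of all probe sets higher and 6.65% lower, and at each later time 1 fell, against 3.39%, 2.47%, 1.98% and 2.97% higher and 4.54%, 2.53%, 1.76% and 3.51% lower. ATP sulfurylase APS3 rose at 3 h by 1.68 (adjusted p = 8.80e-06) and stood at 0.29 (adjusted p = 0.336) at 72 h, so it passed at a single time. APS4, another ATP sulfurylase, fell at 72 h, at -3.23 (adjusted p = 1.52e-07). At 48 h its fall was -2.46 (adjusted p = 4.96e-06), kept in all 20 alternatives. Its earlier falls were -0.86 (adjusted p = 0.0133) at 12 h, lost without either 0 h array or 12 h replicate 2, and -1.03 (adjusted p = 0.00716) at 24 h, lost without 24 h replicate 1. Sulfite reductase SIR passed at no time, at 0.35 (adjusted p = 0.118) at 3 h.

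Clock and root hair genes also differed from 0 h at 3 h, the time at which most members were highest. Of 11 clock genes, 2 could be tied to a probe set of their own. GI rose at every later time, at 1.51 (adjusted p = 4.46e-05) at 3 h and 0.88 (adjusted p = 0.00733) at 72 h, of which the 72 h call was lost without 0 h replicate 2 or 72 h replicate 1. CCL fell at 3 h, at -2.17 (adjusted p = 2.05e-04), and at 12 h, at -1.24 (adjusted p = 0.0189), where the call was lost with no offset and without 0 h replicate 2 or either 12 h array. Its signals were 4.01 and 17.7 at 3 h and 31.5 and 35.3 at 12 h, all below the 40th percentile of their arrays. The fitted size at 3 h ran from -3.58 to -1.32 over the 20 alternatives. At 24 h CCL stood at -0.65 (adjusted p = 0.278). The root hair genes EXPA7 and EXPA18 fell at 3 h, at -1.70 (adjusted p = 8.11e-04) and -1.04 (adjusted p = 0.00271). Both were also called lower at 24 h, and EXPA18 alone at 48 h and 72 h, at -0.77 (adjusted p = 0.0327) at 72 h. Of these later calls, that of EXPA18 at 24 h was kept in all 20 alternatives and the others were lost in 5 to 7. Neither green tissue gene passed at 3 h, with LHCB4.1 at -0.47 (adjusted p = 0.15) and RCA at -0.36 (adjusted p = 0.317). Both fell at 12 h, at -0.73 (adjusted p = 0.0335) and -0.85 (adjusted p = 0.0221), calls lost without any 1 of the 4 arrays compared. That of LHCB4.1 was also lost with no filter. GSO1 and the root tip gene AGL42 passed at no time, and lists of carbon starvation and nitrate response genes had no probe set paired with 1 of their genes. The part of these in the members' values was not tested.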

How the data were processed

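RNA of whole roots was measured on 12 single-colour Affymetrix arrays, 2 at each of 6 times. The values the authors deposited are linear intensities, 1 MAS5 signal per probe set and array, made with MAS5 per the submitters' processing notes; not given in the sources used here are its version and scaling target. Precision is limited by how few arrays there are. Members were found on signal + 16. Tests used log2(signal + 16) with limma 3.58.1 in R 4.3.3: group means over all 12 arrays, empirical Bayes with an intensity trend, and Benjamini-Hochberg adjustment over 14682 probe sets above the array's 40th percentile on at least 2 arrays, at an adjusted p of 0.05. Members and gene lists were chosen with earlier results of these data known. Genes were named from the platform table where a probe set had 1 gene (13513 probe sets, against 503 with several and 8730 not listed), of which 13436 matched the TAIR10.1 gene table. Every member with 1 gene is named. Values on each array are given for the 10 members with the highest mean difference, the 8 with the smallest F test p, the 3 highest and 3 lowest called at 72 h against 3 h, list genes, and the 3 probe sets on either side of the limit. The fit was tested on simulated data, in which the F test made 5 false calls. When the simulated difference was 1.5-fold, it recovered 3 out of 75 changed probe sets. For a 2-fold difference it recovered 33 out of 61, and for a 4-fold difference 60 out of 64. A member whose F test did not pass was therefore not shown to be flat among the later times. After the values were seen, lower bounds were added: a group with both arrays below the 40th percentile was set to that percentile, which is the test filter and not a detection limit. Alternatives covered the offset, filter, trend, quantile normalization, compared groups alone, a replicate block and leaving out each array. Same-numbered arrays did not deviate together (correlations between groups of -0.26 to 0.22), so the numbers were not taken as pairs.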

Additional observations from a re-analysis of the deposited data

Results flagged for a closer look

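The 28 members that differed between 72 h and 3 h stand out because the same set against 0 h had unlike sizes at the first and last times, by the limma test of the difference itself. The values are log2 differences, 72 h minus 3 h. Those that rose were AT3G05400 at 2.88, AT1G12030 at 2.08, 248676_at at 1.04, 256244_at at 1.02 and 262118_at at 0.56. Both 3 h arrays of AT1G12030 were below the 40th percentile, so its 2.08 is a fitted size, with a lower bound of 1.11. The call of 262118_at was lost in 3 of 20 alternatives. Named genes that fell were AT4G36010 at -1.11, AT5G51440 at -0.97, AT5G14730 at -0.64 and AER at -0.62. The deepest falls among unlisted probe sets were 258321_at at -2.52, 260540_at at -1.58, 260405_at at -1.57, 245306_at at -1.47 and 255284_at at -1.27. Near -1 were 254343_at at -1.03, 264745_at at -1.03 and 266155_at at -1.03. Smaller falls were 250252_at at -0.87, 253046_at at -0.78, 257643_at at -0.76, 249494_at at -0.74, 264119_at at -0.70, 260602_at at -0.67 and 256453_at at -0.62. The smallest were 253416_at at -0.58, 263184_at at -0.57, 266290_at at -0.52 and 262518_at at -0.40. Of these 4, 266290_at was lost in 12 of 20 alternatives and was -0.30 without 3 h replicate 2 (limma, adjusted p = 0.408), 262518_at was lost in 10, and 253416_at and 263184_at in 3 each. In all, 15 of the 28 calls were lost in some alternative. No explanation of these differences was tested.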

How the results depend on the processing

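The set itself moved with its limits: 35 probe sets met the rule with an offset of 50, 18 with a 2-fold limit, and 55 to 142 with 1 array left out, against 55. No member's called difference changed sign in any of the 20 alternatives to the tests. Of 28 members called at 72 h against 3 h, 13 kept the call in all 20; of 15 at 12 h against 3 h, 5 did, and of 31 by the F test, 17 did. Leaving out 1 array gave 19 to 32 members by the F test, 5 to 16 lower at 12 h against 3 h, and 12 to 25 lower and 4 to 5 higher at 72 h against 3 h. At 72 h against 48 h, 1 member was higher with an offset of 50 and 2 with the compared groups alone, against 0. With the replicate block 26 members passed the F test, 15 fell at 12 h, and 23 fell and 5 rose at 72 h against 3 h. Over all probe sets the F test called 1005, against 666 with no filter and 624 to 1144 with 1 array left out. At 12 h against 3 h, 153 were higher, against 91 with no filter, 101 with no trend, 77 with the compared groups alone and 22 to 324 with 1 array left out; 180 were lower, against 110 with the groups alone and 43 to 234. At 72 h against 3 h, 673 were higher, against 444 with the groups alone and 262 to 866; 608 were lower, against 284 to 744. The causes were not tested. With 2 arrays a group, differences near the replicate spread were not detectable.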
